A study of Homo sapiens with 14 samples.

Results

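Of the 13734 genes in the deposited expression table of MDA-MB-231 cells, 384 (2.80%) carry 1 of 3 kinds of noncoding gene name. They were taken by symbol alone. A set of 242 symbols ends in -AS and a digit (antisense genes, named after a gene on the opposite strand), 126 start with LINC (long intergenic noncoding RNAs) and 16 start with SNHG (small nucleolar RNA host genes). No expression value entered the choice, and 0 symbols fell in 2 classes. MDA-MB-231 is an established human breast cancer line of mesenchymal character, and its total RNA was sequenced after depletion of ribosomal RNA in 14 libraries, 2 for each of 7 groups. Cells were transfected with YAP/TAZ siRNA mix 1 or mix 2 and harvested at 48 h, with BRD siRNA mix A or mix B, directed at BET genes (BRD2 and BRD3 among them), and harvested at 72 h, or with control siRNA. Other cells received JQ1 at 1 µM for 24 h or DMSO. All cells grew in DMEM:F12 with serum, the siRNAs were delivered with Lipofectamine RNAiMAX, and the knockdowns were transient. When the control siRNA and DMSO libraries were harvested is not in the labels, which also do not say whether the 2 libraries of a group came from separate cultures. The p-values below therefore measure the spread between these libraries, which may be technical, and the siRNA comparisons share 1 pair of control libraries.

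Antisense genes are transcribed from the strand opposite a named gene, often from the same promoter region in the other direction, and their RNAs may overlap that gene or lie head to head with it. LINC genes lie between protein-coding genes and are a naming class with no common function. SNHG genes are processed differently: the spliced exons are mostly untranslated and short-lived, and the introns carry small nucleolar RNAs (snoRNAs), the guides for methylation and pseudouridylation of ribosomal RNA. Many snoRNA hosts, the ribosomal protein genes among them, start transcription in a run of pyrimidines (the terminal oligopyrimidine, or TOP, type of start), and spliced SNHG RNAs are known substrates of nonsense-mediated decay. YAP and TAZ (WWTR1) are the co-activators that the Hippo pathway restrains, and they act mainly through TEAD factors, BET proteins such as BRD2 and BRD3 read acetylated histones, and JQ1 displaces BET proteins from acetylated lysines. The series title gives the question as how BET proteins bear on YAP/TAZ-dependent transcription.

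Values are CPM, read counts divided by a library size that the authors had scaled, and are called scaled RPM here. Reads assigned to genes numbered 15741695 to 37311326 per library, with a median of 23539829, the control siRNA libraries being the shallowest with 18002737 and 15741695. Target RNA was reduced as labelled: YAP1 stood at 18.6 to 24.2 scaled RPM in the 4 YAP/TAZ siRNA libraries, against 174 to 190.0 in the control siRNA libraries, BRD3 at 9.05 to 10.6 in the 4 BRD siRNA libraries, against 29.7 to 32.5 in the control siRNA libraries, and BRD2, less reduced, at 154 to 204 in the 4 BRD siRNA libraries, against 251 to 252 in the control siRNA libraries. All 10 MDA-MB-231 markers had a row. Of 14 luminal epithelial markers 11 had a row, but not ESR1, PGR or CDH1, and 6 of 10 leukocyte markers, PTPRC among them, had none. The sources used here do not say how the counting treated strand, so reads of an antisense gene and of its overlapping partner may not be told apart. VIM-AS1 stood at 3.09 to 19.1 scaled RPM over the 14 libraries while VIM stood at 2894 to 6615. In bulk RNA, fewer cells with a transcript and less of it in each cell cannot be told apart.

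The annotated starts of the SNHG genes are shown first, because a pyrimidine run at the start was more frequent among them than among the antisense or LINC genes. RefSeq (GRCh38.p14) gives start windows for 13 of the 16; none is printed for SNHG6, SNHG9 and SNHG15. Each line holds 40 bases before and 40 from the annotated start onwards, read 5′ to 3′ on the gene's own strand. Capitals mark a run of at least 6 C or T bases that covers the start, or begins or ends within 3 bases of it. The first 5 genes have such a run; SNHG1, SNHG11 and SNHG20 do not, and stand in lower case throughout.
SNHG16: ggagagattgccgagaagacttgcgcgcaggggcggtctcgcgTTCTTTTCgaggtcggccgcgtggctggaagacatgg
SNHG12: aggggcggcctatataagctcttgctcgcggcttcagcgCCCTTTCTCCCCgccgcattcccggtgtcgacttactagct
SNHG4: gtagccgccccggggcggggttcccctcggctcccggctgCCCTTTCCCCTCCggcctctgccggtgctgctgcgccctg
SNHG17: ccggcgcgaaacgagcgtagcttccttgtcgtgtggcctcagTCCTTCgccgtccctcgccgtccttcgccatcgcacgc
SNHG5: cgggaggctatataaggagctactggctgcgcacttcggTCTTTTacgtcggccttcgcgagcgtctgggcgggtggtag
SNHG1: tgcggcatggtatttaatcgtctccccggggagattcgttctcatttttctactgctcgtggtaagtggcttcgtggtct
SNHG11: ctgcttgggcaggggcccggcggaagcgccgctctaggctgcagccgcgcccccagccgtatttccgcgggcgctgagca
SNHG20: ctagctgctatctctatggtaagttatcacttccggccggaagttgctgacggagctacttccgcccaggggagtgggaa
The windows lie at chr17:76557724-76557803 (plus strand), chr1:28581834-28581913 (minus), chr5:139274061-139274140 (plus), chr20:38435289-38435368 (minus), chr6:85678694-85678773 (minus), chr11:62855846-62855925 (minus), chr20:38446614-38446693 (plus) and chr17:77088603-77088682 (plus).

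A run of this kind was present in 8 of 13 SNHG windows (61.5%). It was present in 35 of the 191 antisense and 23 of the 92 LINC windows, and in 22.7% of 27305 genes with a window. The 8 SNHG genes with a run (SNHG3, SNHG4, SNHG5, SNHG7, SNHG8, SNHG12, SNHG16 and SNHG17) had median log2 fold changes of -1.07 after YAP/TAZ siRNA, -0.58 after BRD siRNA and -0.42 with JQ1. The 5 without one (SNHG1, SNHG10, SNHG11, SNHG20 and SNHG21) had medians of -0.35, 0.21 and -0.37 in the same comparisons. SNHG1, the host of several C/D box snoRNAs, has a run of 5 and so counts among these 5, although it was one of the SNHG genes lowest after YAP/TAZ siRNA. The rule for a run was chosen after the sequences had been seen, so the split is a description without a test. Within the 300 bases from 250 before to 50 after the start, the TEAD motif GGAATG was found on either strand in 15.4% of SNHG, 14.7% of antisense and 9.78% of LINC windows, against 16.7% of all windows. The E-box CACGTG was found in 7.69%, 9.42% and 7.61% of them, against 8.77% of all windows, and the motifs can share at most an end base. A match in letters is neither a binding site nor a cause.

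After YAP/TAZ siRNA the SNHG genes fell as a group: 13 of the 16 were called lower and 2 higher at an adjusted p under 0.05 (limma over all 13674 genes tested, Benjamini-Hochberg). Of all genes tested, 35.9% were called lower and 43.1% higher. The median log2 fold change of the SNHG genes was -0.88, against 0.073 for all genes, on the log2(value + 1) scale used throughout, which understates changes of low genes. Under every other scaling tried, 13 or 14 SNHG genes were called lower.

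SNHG1 had 61.2 and 60.8 scaled RPM in the mix 1 libraries and 51.3 and 54.1 in the mix 2 libraries, against 162 and 154 in the control siRNA libraries. All 4 knockdown libraries lay below both controls (log2 fold change -1.46 ± 0.056 (SE), limma adjusted p = 1.62e-15). SNHG15, host of SNORA9, had 8.50 and 8.90 scaled RPM in the mix 1 libraries and 11.1 and 9.50 in the mix 2 libraries, against 28.8 and 28.9 in the control siRNA libraries. It showed the largest fall of the class, with no overlap between groups (log2 fold change -1.51 ± 0.073 (SE), limma adjusted p = 6.27e-14). SNHG16, host of SNORD1C, had 152 and 143 scaled RPM in the mix 1 libraries and 94.4 and 99.7 in the mix 2 libraries, against 292 and 258 in the control siRNA libraries. Mix 2 took it lower than mix 1, and both lay below the controls (log2 fold change -1.19 ± 0.057 (SE), limma adjusted p = 5.22e-14). SNHG12 (-1.15 ± 0.073), SNHG7 (-1.15 ± 0.068), SNHG17 (-1.13 ± 0.096), SNHG3 (-1.02 ± 0.079), SNHG4 (-0.97 ± 0.14) and SNHG8 (-0.78 ± 0.059) fell by similar amounts. SNHG6 (-0.47 ± 0.057), SNHG20 (-0.42 ± 0.13) and SNHG10 (-0.35 ± 0.10) fell less. SNHG20 was not called with mix 1 alone (-0.32), and the call for SNHG10 was lost without control siRNA replicate 2 (-0.29). SNHG21, at -0.18 ± 0.12, was not called.

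SNHG5 did not follow one direction. It had 44.6 and 45.1 scaled RPM in the mix 1 libraries but 172 and 183 in the mix 2 libraries, against 116 and 118 in the control siRNA libraries. Its log2 fold change was -1.36 ± 0.059 with mix 1 and 0.60 ± 0.059 with mix 2, and the mean over both, -0.38, stands for neither. Mix 1 and mix 2 differed by -1.96 ± 0.059 (limma adjusted p = 1.03e-16). The SNHG genes called higher were SNHG11 (0.43 ± 0.12) and SNHG9 (0.23 ± 0.10), and both calls rest on single libraries. With mix 1 alone SNHG11 was not called (0.22), and SNHG9 was called with neither mix alone (0.25 with mix 1 and 0.20 with mix 2). Without control siRNA replicate 1 SNHG11 was no longer called (0.18), and without replicate 2 its value was 0.68. SNHG9 was no longer called without control siRNA replicate 2 (0.11), without mix 1 replicate 1 (0.20) or without mix 2 replicate 1 (0.18), while without control siRNA replicate 1 it stood at 0.35.

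**Figure D1:**
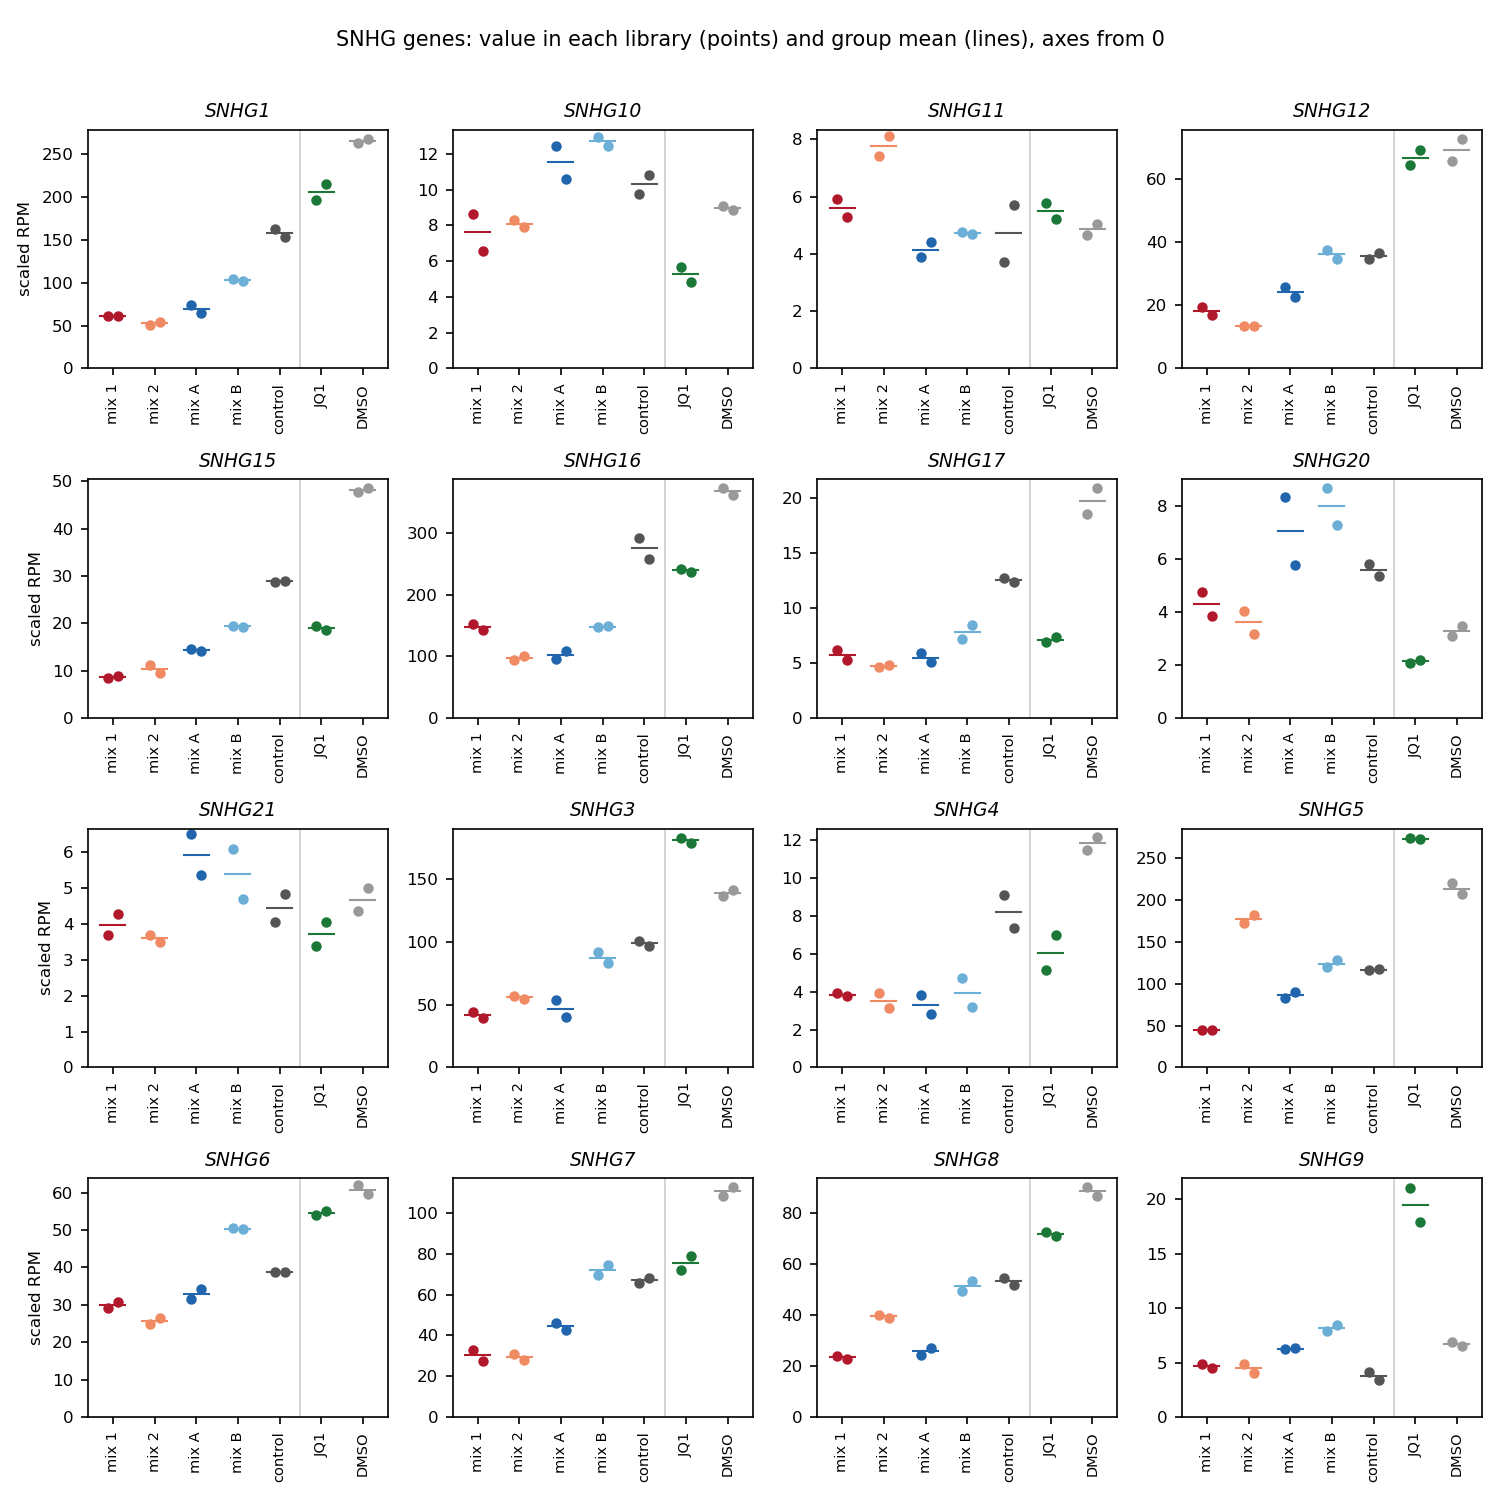
Level of each of the 16 SNHG genes (scaled RPM, linear axis from 0) in the 2 libraries of each group (points), with the group mean as a line; a grey vertical line separates the siRNA groups from JQ1 and DMSO. SNHG1, SNHG15 and SNHG16 lie below control siRNA with all 4 siRNA mixes, SNHG5 lies on opposite sides of control siRNA with mix 1 and mix 2, and SNHG9 is highest with JQ1.

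After BRD siRNA 10 SNHG genes were called lower and 3 higher, with a median log2 fold change of -0.25 against -0.0047 over all genes; 37.6% of all genes tested were called lower and 37.6% higher, 75.2% in all. Mix A and mix B did not act alike. With mix A alone 11 SNHG genes were called lower, and with mix B alone 5 (SNHG1, SNHG15, SNHG16, SNHG17 and SNHG4). SNHG16 fell most in the mean of both mixes, with 96.4 and 109 scaled RPM in the mix A libraries and 147 and 148 in the mix B libraries, against 292 and 258 in the control siRNA libraries (log2 fold change -1.15 ± 0.057 (SE), limma adjusted p = 1.41e-13). SNHG1 had 74.3 and 64.6 scaled RPM in the mix A libraries and 105 and 102 in the mix B libraries, against 162 and 154 in the control siRNA libraries. It lay below the controls with both mixes (log2 fold change -0.89 ± 0.056 (SE), limma adjusted p = 7.48e-12). SNHG4, a host of SNORA74A, also fell (-1.0 ± 0.14), as did SNHG17 (-0.84 ± 0.096), SNHG15 (-0.76 ± 0.073), SNHG3 (-0.62 ± 0.079) and SNHG8 (-0.54 ± 0.059).

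SNHG8 had 24.4 and 27.1 scaled RPM in the mix A libraries but 49.4 and 53.2 in the mix B libraries, against 54.6 and 51.7 in the control siRNA libraries. The mix B values thus overlapped the control values, while both mix A values lay far below. Mix A and mix B differed by -0.97 ± 0.068 (limma adjusted p = 2.25e-10). In all, 11 of 16 SNHG genes were lower with mix A than with mix B and 0 were higher, where 24.3% of all genes tested were lower and 25.7% higher. SNHG12 (0.015), SNHG5 (0.085) and SNHG7 (0.10) were on the other side of zero with mix B alone, against mean values of -0.27, -0.17 and -0.24 over both mixes. SNHG6 was called lower with mix A (-0.24) and higher with mix B (0.37). The genes called higher in the mean were SNHG9 (0.78 ± 0.10), SNHG20 (0.36 ± 0.13) and SNHG21 (0.29 ± 0.12). SNHG20 lost its call without control siRNA replicate 2 (0.31), mix A replicate 1 (0.24) or mix B replicate 1 (0.30). SNHG21 lost it without control siRNA replicate 1 (0.19), mix A replicate 1 (0.23) or mix B replicate 1 (0.21). SNHG10 (0.21) and SNHG11 (-0.055) were not called.

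With JQ1, again, 10 SNHG genes were called lower and 3 higher (median log2 fold change -0.33, against 0.012 over all genes; 36.3% of all genes called lower and 37.6% higher, 73.9% in all). SNHG17, host of the SNORA71 snoRNAs, had 6.90 and 7.34 scaled RPM in the JQ1 libraries, against 18.6 and 20.9 in the DMSO libraries (log2 fold change -1.35 ± 0.11 (SE), limma adjusted p = 5.28e-10). SNHG15 had 19.3 and 18.5 scaled RPM in the JQ1 libraries, against 47.7 and 48.5 in the DMSO libraries, and fell about as far (log2 fold change -1.30 ± 0.084 (SE), limma adjusted p = 1.16e-11). SNHG4 (-0.87 ± 0.16), SNHG10 (-0.67 ± 0.12), SNHG16 (-0.62 ± 0.065), SNHG7 (-0.55 ± 0.078), SNHG1 (-0.37 ± 0.065) and SNHG8 (-0.30 ± 0.068) were lower by smaller steps. SNHG20 (-0.44) lost its call without DMSO replicate 2 (-0.38). SNHG6 (-0.15) lost it without any one of DMSO replicate 1 (-0.12), DMSO replicate 2 (-0.18), JQ1 replicate 1 (-0.14) or JQ1 replicate 2 (-0.17). SNHG12 (-0.048), SNHG11 (0.15) and SNHG21 (-0.27) were not called. SNHG9, the host of SNORA78, went the other way with 21.1 and 17.9 scaled RPM in the JQ1 libraries, against 6.87 and 6.54 in the DMSO libraries (log2 fold change 1.41 ± 0.12 (SE), limma adjusted p = 6.63e-10). SNHG3 (0.38 ± 0.091) and SNHG5 (0.35 ± 0.059) were also called higher.

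The snoRNAs themselves had few rows. In the table, 19 snoRNAs lay within 9 SNHG hosts (GENCODE v29), and of these 14 were called lower and 2 higher after YAP/TAZ siRNA, 16 lower and 0 higher after BRD siRNA, and 14 lower and 0 higher with JQ1. Median log2 fold changes were -0.64, -0.53 and -0.47. Lower calls covered 35.9%, 37.6% and 36.3% of all genes tested in the same comparisons, and higher calls 43.1%, 37.6% and 37.6%. The 6 snoRNAs of SNHG1 all fell after YAP/TAZ siRNA, by 0.58 for SNORD26 up to 1.25 for SNORD25 on the log2 scale. The exceptions lay within hosts that fell: SNORA71A of SNHG17 stood at 0.22 and SNORA74A of SNHG4 at 0.29 after YAP/TAZ siRNA, both called higher. Most of these rows were low, 14 of the 19 having means of 0.869 to 4.44 scaled RPM over all libraries. Falls were not confined to SNHG hosts. SNORD12B of ZFAS1, a host without the SNHG name, stood at -1.06, -0.85 and -0.84, with ZFAS1 at 0.065, -0.047 and 0.35. SNORD65 of LRRC75A-AS1 stood at -0.91, -1.11 and -0.91, with its host not called. SNORA13, SNORD12, SNORD12C and SNORA26, also outside SNHG hosts, were called lower in all 3 comparisons, and SNORD49A and SNORD49B in none. Outside the SNHG class, 4 antisense genes and 1 LINC gene tested, LINC00888, carry a snoRNA in their body. After YAP/TAZ siRNA 1 of those antisense genes and LINC00888 (0.83) were called higher and 0 lower. Of all genes tested 43.1% were called higher and 35.9% lower. After BRD siRNA 1 antisense gene was called lower and LINC00888 (-0.0095) was not called, its mixes being called opposite ways. With JQ1 LINC00888 alone was called (0.30).

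Protein-coding genes that host snoRNAs in their introns are a group of their own outside the name rule. Of 47 such genes in the table, 37 were called lower and 4 higher after YAP/TAZ siRNA (median -0.44), 18 lower and 16 higher after BRD siRNA (-0.074) and 22 lower and 10 higher with JQ1 (-0.16). NOP56, a core protein of C/D box snoRNPs, had log2 fold changes of -1.45, -0.59 and -0.76, each called. Of 17 nonsense-mediated decay factors, 9 were called lower and 3 higher after YAP/TAZ siRNA (median -0.21), 6 lower and 6 higher after BRD siRNA, and 6 lower and 7 higher with JQ1. In these comparisons 35.9%, 37.6% and 36.3% of all genes tested were called lower, and 43.1%, 37.6% and 37.6% higher. The host counts after BRD siRNA and the decay-factor counts after BRD siRNA and with JQ1 lie near those shares. RBM8A, an exon junction protein, stood at -0.80, 0.17 and -0.89. Whether either group bears on the SNHG values was not tested.

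The class totals set the SNHG genes apart in level as well. Summed over its 16 genes, the SNHG class reached 441 ± 18.0 scaled RPM with mix 1, 537 ± 6.54 with mix 2, 491 ± 7.77 with mix A and 743 ± 0.148 with mix B, against 922 ± 30.2 with control siRNA (mean ± SD, n = 2 each). It reached 1237 ± 12.9 with JQ1, against 1423 ± 4.96 with DMSO. The DMSO and control siRNA totals thus differed, and the control pairs cannot be exchanged for each other. LINC genes summed to 2158 ± 39.9 with mix 1, 1613 ± 20.9 with mix 2, 2202 ± 53.7 with mix A and 2217 ± 52.8 with mix B, against 1383 ± 9.80 with control siRNA, and to 1742 ± 21.5 with JQ1, against 1251 ± 6.27 with DMSO. Antisense genes summed to 2000.3 ± 35.4 with mix 1, 2333 ± 77.4 with mix 2, 2189 ± 5.42 with mix A and 2469 ± 45.2 with mix B, against 1868 ± 21.6 with control siRNA, and to 2333 ± 6.86 with JQ1, against 2429 ± 43.7 with DMSO. A few genes carry these sums: the 5 genes with the highest means held 50.4% of the antisense, 61.9% of the LINC and 76.1% of the SNHG total. Per kb of exon (GENCODE v29), the median level over all libraries was 0.808 scaled RPM for antisense, 0.622 for LINC and 11.4 for SNHG genes.

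**Figure D2:**
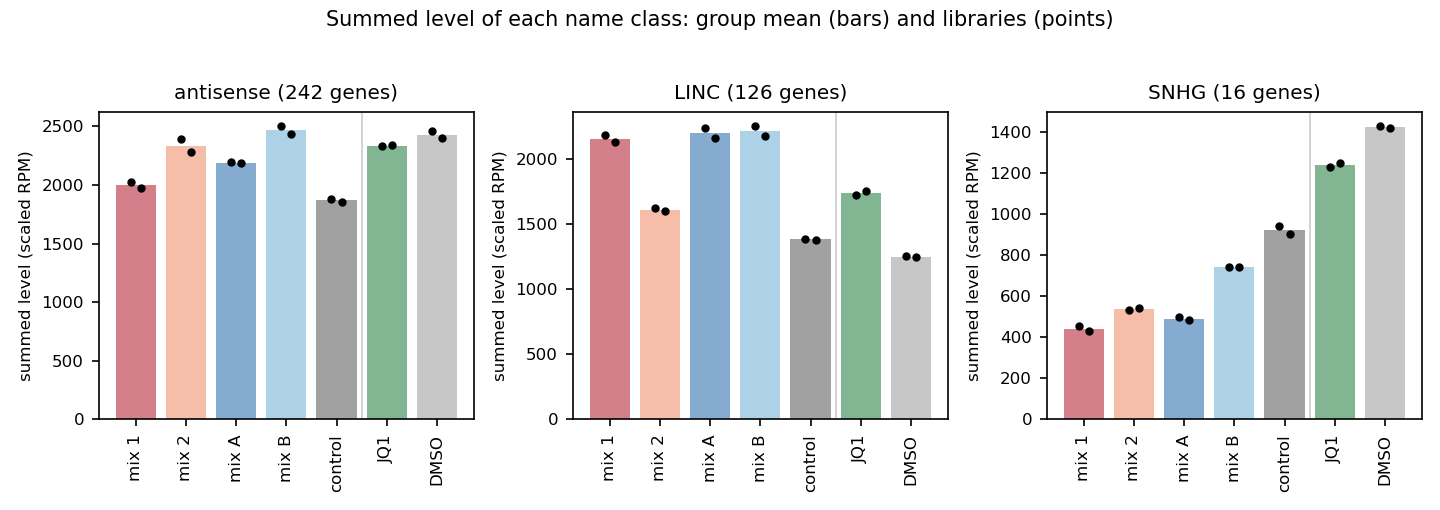
Summed level (scaled RPM, linear axis from 0) of the antisense, LINC and SNHG genes in each group: bars are means of 2 libraries and points are the libraries; a grey vertical line separates the siRNA groups from JQ1 and DMSO. The SNHG total is lowest with mix 1 at 441 and highest with DMSO at 1423. The LINC total, of which LINC00657 is the largest part, lies above its control with all 4 siRNA mixes and with JQ1.

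Most antisense and LINC genes were scarce. The mean over all libraries was under 2 scaled RPM for 111 antisense and 60 LINC genes and at least 5 for 66 and 37. At these depths 1 read was worth 0.0276 to 0.0602 scaled RPM. The 373 genes tested (235 antisense, 122 LINC and 16 SNHG) reached 1 scaled RPM in 2 or more libraries. The other 11, with means of 0.369 to 0.748, were not tested: ADAMTS9-AS2, FAM83H-AS1, LINC00235, LINC00337, LINC00865, LINC01273, LRP4-AS1, LYPLAL1-AS1, MNX1-AS1, TNKS2-AS1 and ZNF503-AS2. Because a scarce gene passes that filter through the groups where it is high, the counts below describe the genes that passed.

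The antisense genes with most reads, without correction for length, were LRRC75A-AS1 (mean 496 scaled RPM), WAC-AS1 (371), FGD5-AS1 (163), MMP24-AS1 (56.4) and UGDH-AS1 (39.4). LRRC75A-AS1 carries SNORD49A, SNORD49B and SNORD65 in its introns and is now SNHG29 in RefSeq. It was not called in any of the 3 main comparisons, at 0.095 after YAP/TAZ siRNA, 0.024 after BRD siRNA and -0.095 with JQ1, but the BRD siRNA mixes were called in opposite directions (-0.32 with mix A and 0.37 with mix B). The LINC genes with most reads were LINC00657 (890.5), LINC00261 (61.6), LINC00674 (59.7), LINC00152 (53.5) and LINC00704 (46.7). LINC00657 is NORAD, a cytoplasmic RNA that binds Pumilio proteins. Its level was 1122 and 1114 scaled RPM in the mix 1 libraries, 609 and 612 in mix 2, 1298 and 1287 in mix A and 1247 and 1206 in mix B, against 574 and 552 in the control siRNA libraries, and 939 and 948 in the JQ1 libraries, against 483 and 476 in the DMSO libraries. With mix 2 it was not called (0.12), and it was called higher in the other treated groups (means over both mixes 0.55 ± 0.047 after YAP/TAZ siRNA, 1.16 ± 0.047 after BRD siRNA and 0.97 ± 0.054 with JQ1).

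After YAP/TAZ siRNA, 107 of 235 antisense genes were called higher and 42 lower (median log2 fold change 0.22), and 67 of 122 LINC genes were called higher and 13 lower (median 0.35). Over all genes 43.1% were called higher and 35.9% lower. The higher share depended on the scaling: quantile normalization, which gives every library one distribution of values, turned the antisense split to 62 higher and 79 lower (median -0.039) and the LINC split to 44 higher and 33 lower. The counts also differed by level: 55.8% of all genes with a mean under 2 were called higher and 11.3% lower, against 44.2% and 9.62% of antisense and 53.6% and 7.14% of LINC genes of that level. At a mean of at least 5, 43.9% of antisense and 54.1% of LINC genes were called higher and 22.7% and 21.6% lower, against 40.0% higher and 41.5% lower of all genes. In the same libraries 9 of 11 luminal epithelial markers were called higher, with a summed level of 1443 to 1513 scaled RPM with mix 1 and 1428 to 1445 with mix 2, against 430 to 448 with control siRNA. All 4 leukocyte markers and all 4 fibroblast and endothelial markers with a row were called higher too, at 123 to 183 and 39.1 to 47.6, against 67.5 to 69.7 and 13.6 to 17.9 with control siRNA. Of the 10 MDA-MB-231 markers 2 were called higher and 7 lower. The part of these markers in the result was not tested.

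**Figure D3:**
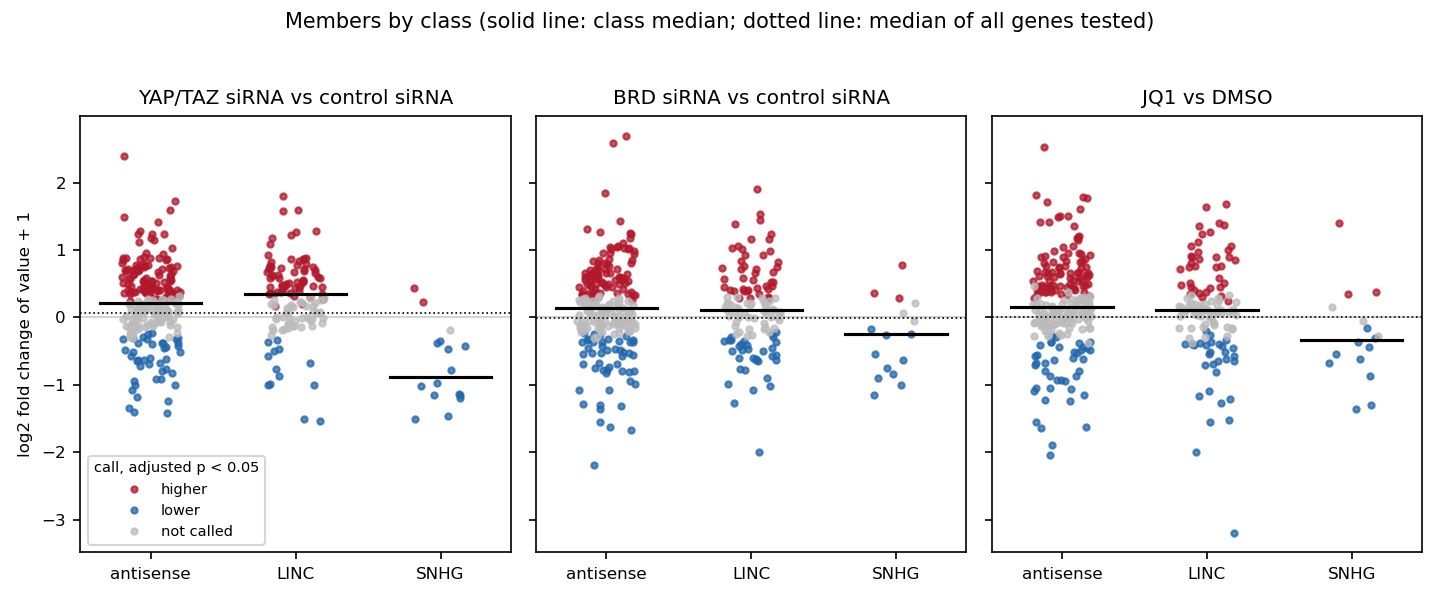
Log2 fold change of value + 1 (vertical axis) of every gene tested in the antisense, LINC and SNHG classes, for YAP/TAZ siRNA against control siRNA, BRD siRNA against control siRNA and JQ1 against DMSO; each point is 1 gene, coloured by its call, the solid bar is the class median and the dotted line the median of all genes tested. The SNHG points lie mostly below 0, with a median of -0.88 after YAP/TAZ siRNA, while the antisense and LINC medians lie slightly above the median of all genes (with quantile normalization the antisense median after YAP/TAZ siRNA was -0.039).

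The antisense genes that rose most after YAP/TAZ siRNA were VAC14-AS1, DLG5-AS1, ARHGAP5-AS1, DLGAP1-AS1 and MAP3K14-AS1. VAC14-AS1 lies opposite VAC14, a scaffold of the kinase complex PIKfyve, and had 5.79 and 5.41 scaled RPM in the mix 1 libraries and 15.9 and 16.4 in the mix 2 libraries, against 0.799 and 1.26 in the control siRNA libraries. It was scarce in every other group, and mix 2 raised it further than mix 1 (log2 fold change 2.40 ± 0.11 (SE), limma adjusted p = 3.93e-14). VAC14 itself was not called as a mean (-0.076, adjusted p = 0.283) and was called lower with mix 1 (-0.35) and higher with mix 2 (0.20), the mix that raised VAC14-AS1 further. DLG5-AS1, opposite the scaffold protein gene DLG5, had 7.04 and 7.37 scaled RPM in the mix 1 libraries and 7.26 and 7.98 in the mix 2 libraries, against 1.28 and 1.81 in the control siRNA libraries (log2 fold change 1.73 ± 0.13 (SE), limma adjusted p = 6.55e-11). Here the partner rose too, by 2.04. DLGAP1-AS1 (1.49 ± 0.11) and MAP3K14-AS1 (1.41 ± 0.13) rose by similar amounts. ATP6V0E2-AS1 (-1.41 ± 0.11), HIF1A-AS2 (-1.40 ± 0.12), RNASEH1-AS1 (-1.34 ± 0.11), EMC3-AS1 (-1.18 ± 0.10) and ZNF674-AS1 (-1.08 ± 0.099) fell most among antisense genes with a mean of at least 5 scaled RPM in the higher group. HIF1A-AS2, at the gene of the hypoxia factor HIF1A, had 1.78 and 1.49 scaled RPM in the mix 1 libraries and 1.23 and 0.734 in the mix 2 libraries, against 5.60 and 4.45 in the control siRNA libraries. All 4 knockdown libraries lay below both controls.

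Among LINC genes with a mean of at least 5 scaled RPM in the higher group, LINC01270 (1.8 ± 0.11), LINC00261 (1.58 ± 0.068), LINC00094 (1.29 ± 0.065), LINC00963 (1.09 ± 0.11) and LINC00351 (0.93 ± 0.11) rose most. Scarcer LINC genes, some with changes as large, are not ranked here. LINC00261, which lies beside the endoderm factor gene FOXA2, had 119.8 and 114 scaled RPM in the mix 1 libraries and 126 and 126 in the mix 2 libraries, against 40.3 and 39.2 in the control siRNA libraries. Both mixes raised it to a like level, with no overlap (limma adjusted p = 1.07e-14). LINC00094 is now BRD3OS, at the BRD3 locus, and is annotated as protein-coding in RefSeq. It had 38.6 and 40.7 scaled RPM in the mix 1 libraries and 42.1 and 42.8 in the mix 2 libraries, against 16.1 and 16.3 in the control siRNA libraries, and rose with both mixes. The largest falls at that level were those of LINC00669 (-1.54 ± 0.12), LINC00116 (-1.01 ± 0.091), LINC00452 (-0.87 ± 0.098), LINC00883 (-0.76 ± 0.084) and LINC01116 (-0.68 ± 0.078). LINC00116 encodes mitoregulin, a small mitochondrial protein now named MTLN, and had 9.39 and 9.45 scaled RPM in the mix 1 libraries and 10.4 and 8.08 in the mix 2 libraries, against 18.7 and 20.6 in the control siRNA libraries. Each of its knockdown libraries lay below both controls.

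After BRD siRNA, 90 of 235 antisense genes were called higher and 49 lower (median 0.14), and 43 of 122 LINC genes higher and 33 lower (median 0.12). Over all genes 37.6% were called each way. Quantile normalization widened these splits to 121 higher and 36 lower for antisense and 59 higher and 25 lower for LINC genes. ARHGAP5-AS1, opposite the gene of a GTPase-activating protein, rose most among antisense genes, with 43.7 and 42.7 scaled RPM in the mix A libraries and 58.9 and 51.1 in the mix B libraries, against 6.34 and 7.04 in the control siRNA libraries (log2 fold change 2.69 ± 0.078 (SE), limma adjusted p = 4.55e-17). DNMBP-AS1, opposite the gene of a Cdc42 exchange factor, had 10.4 and 9.79 scaled RPM in the mix A libraries and 12.3 and 11.4 in the mix B libraries, against 0.959 and 1.02 in the control siRNA libraries (log2 fold change 2.58 ± 0.11 (SE), limma adjusted p = 1.15e-14). It was scarce in the control libraries and clearly present in all 4 knockdown libraries. GAS6-AS2 (1.84 ± 0.093), RAB11B-AS1 (1.44 ± 0.12) and FUT8-AS1 (1.31 ± 0.098) followed.

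LOXL1-AS1, which overlaps the gene of the elastin-crosslinking enzyme LOXL1, fell most, with 1.66 and 1.57 scaled RPM in the mix A libraries and 1.70 and 1.49 in the mix B libraries, against 10.8 and 11.0 in the control siRNA libraries (log2 fold change -2.19 ± 0.097 (SE), limma adjusted p = 2.63e-14). Mix A and mix B gave nearly one value. ITGB2-AS1 (-1.67 ± 0.13), ATP6V0E2-AS1 (-1.55 ± 0.11), HIF1A-AS2 (-1.36 ± 0.12) and TMPO-AS1 (-1.29 ± 0.12) also fell. LINC00452 rose most among LINC genes, with 23.1 and 24.0 scaled RPM in the mix A libraries and 20.3 and 21.3 in the mix B libraries, against 5.33 and 5.06 in the control siRNA libraries (log2 fold change 1.90 ± 0.098 (SE), limma adjusted p = 3.01e-13). LINC-PINT, an RNA known to be induced by p53, had 72.5 and 52.7 scaled RPM in the mix A libraries and 57.7 and 48.1 in the mix B libraries, against 18.3 and 19.9 in the control siRNA libraries (log2 fold change 1.53 ± 0.10 (SE), limma adjusted p = 1.29e-11). LINC00936 (1.44 ± 0.11), LINC00472 (1.39 ± 0.10) and LINC00663 (1.23 ± 0.13) rose as well. LINC00669 (-2.0 ± 0.12), LINC00704 (-1.02 ± 0.058), LINC00673 (-0.63 ± 0.082), LINC00674 (-0.49 ± 0.059) and LINC01116 (-0.39 ± 0.078) fell. Of 11 luminal markers 3 were called higher and 4 lower here, of 4 leukocyte markers 0 and 3, of 4 fibroblast and endothelial markers 1 and 1, and of 10 MDA-MB-231 markers 3 and 4. The fibroblast and endothelial markers summed to 50.0 to 53.2 scaled RPM with mix A and 32.7 to 32.9 with mix B, against 13.6 to 17.9 with control siRNA, and their part in the result was not tested.

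With JQ1, 90 of 235 antisense genes were called higher and 41 lower (median 0.15), and 38 of 122 LINC genes higher and 30 lower (median 0.11). Over all genes 37.6% were called higher and 36.3% lower. Luminal markers summed to 1787 to 1968 scaled RPM in the JQ1 libraries, against 317 to 321 in the DMSO libraries, although 3 of the 11 were called higher and 3 lower. Of the leukocyte markers 2 were called higher and 1 lower, of the fibroblast and endothelial markers 3 and 0, and of the MDA-MB-231 markers 5 and 4; their part in the result was not tested. LINC00704 showed the largest change of any gene tested in the 3 classes. This RNA, also named MANCR, was described in breast cancer cells as a transcript tied to mitosis. It had 7.42 and 7.34 scaled RPM in the JQ1 libraries, against 77.3 and 73.7 in the DMSO libraries (log2 fold change -3.19 ± 0.067 (SE), limma adjusted p = 4.84e-19). In the siRNA groups it had 50.5 and 46.2 in the mix 1 libraries, 48.1 and 50.6 in mix 2, 27.2 and 26.3 in mix A and 47.8 and 45.6 in mix B, against 71.8 and 73.8 with control siRNA. It was therefore lower in every treated group than in its controls, by very unequal amounts.

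TMPO-AS1 lies at TMPO, the gene of a nuclear lamina protein, and had 1.04 and 1.40 scaled RPM in the JQ1 libraries, against 8.72 and 7.62 in the DMSO libraries (log2 fold change -2.05 ± 0.14 (SE), limma adjusted p = 3.06e-11). NR2F1-AS1, at the gene of an orphan nuclear receptor, had 3.81 and 4.46 scaled RPM in the JQ1 libraries, against 18.1 and 17.8 in the DMSO libraries (log2 fold change -1.89 ± 0.089 (SE), limma adjusted p = 7.61e-14). LOXL1-AS1 (-1.62 ± 0.11), NNT-AS1 (-1.55 ± 0.11) and ATP6V0E2-AS1 (-1.24 ± 0.13) came next. This order covers only antisense genes with a mean of at least 5 scaled RPM in the higher group. Among LINC genes with a mean of at least 5 scaled RPM in the higher group, LINC01116 (-1.55 ± 0.090), LINC00261 (-1.16 ± 0.079), LINC00452 (-0.70 ± 0.11) and LINC00116 (-0.69 ± 0.11) fell most after LINC00704. LINC00669, whose DMSO mean was below that level, fell further than LINC01116 and is described below. LINC00261 thus fell with JQ1, to 10.1 and 8.36 scaled RPM in the JQ1 libraries, against 23.5 and 20.2 in the DMSO libraries, while it rose after BRD siRNA (0.56 ± 0.068). The largest antisense rise was that of NDUFA6-AS1, at the gene of a complex I subunit, with 11.5 and 9.76 scaled RPM in the JQ1 libraries, against 1.13 and 0.911 in the DMSO libraries (log2 fold change 2.52 ± 0.17 (SE), limma adjusted p = 1.61e-11). ASB16-AS1 (1.81 ± 0.14), OSER1-AS1 (1.79 ± 0.12), GATA6-AS1 (1.77 ± 0.15) and NOP14-AS1 (1.71 ± 0.082) followed. LINC00472 had 66.9 and 79.6 scaled RPM in the JQ1 libraries, against 20.1 and 25.5 in the DMSO libraries (log2 fold change 1.64 ± 0.12 (SE), limma adjusted p = 9.59e-11). LINC-PINT (1.36 ± 0.12), LINC01003 (1.27 ± 0.15), LINC01004 (1.23 ± 0.16) and LINC01356 (1.06 ± 0.15) rose by smaller steps.

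Called higher in all 3 main comparisons were 37 antisense, 18 LINC and 1 SNHG gene, together 56 of 373 or 15.0%, against 17.2% of all genes tested. Called lower in all 3 were 18 antisense, 9 LINC and 7 SNHG genes, together 34 or 9.12%, against 17.4% of all genes. The YAP/TAZ and BRD siRNA comparisons share their control libraries, and these shares are not independent of that. Of the genes higher in all 3, ARHGAP5-AS1 and OSER1-AS1 ranked first by the smallest of their changes. ARHGAP5-AS1 had 1.60 ± 0.078, 2.69 ± 0.078 and 1.41 ± 0.090, and its level with mix 1, 39.8 and 37.1, was well above that with mix 2, 12.9 and 12.6. OSER1-AS1 had 1.23 ± 0.10, 1.24 ± 0.10 and 1.79 ± 0.12. LINC01004, LINC-ROR, DLGAP1-AS1 and ZSCAN16-AS1 followed, with rises of 0.73 to 1.49. LINC-ROR is known as a regulator of reprogramming to pluripotency, and had 0.89, 0.76 and 0.99.

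Of the genes lower in all 3, LINC00669 stood at -1.54 ± 0.12, -2.0 ± 0.12 and -2.0 ± 0.14. Its levels were low, with 1.90 and 1.53 scaled RPM in the mix 1 libraries, 0.552 and 0.734 in mix 2, 0.521 and 0.822 in mix A and 0.374 and 0.469 in mix B, against 5.28 and 5.0 with control siRNA, and 0.602 and 0.281 with JQ1, against 5.15 and 4.31 with DMSO. ATP6V0E2-AS1, PRKCQ-AS1, TMPO-AS1, ITGB2-AS1 and LINC00707 followed, with log2 fold changes between -2.05 and -0.89. PRKCQ-AS1 had means under 1 scaled RPM in all 5 treated groups, against 2.61 and 2.71 in the control siRNA libraries and 2.33 and 2.49 in the DMSO libraries.

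**Figure D4:**
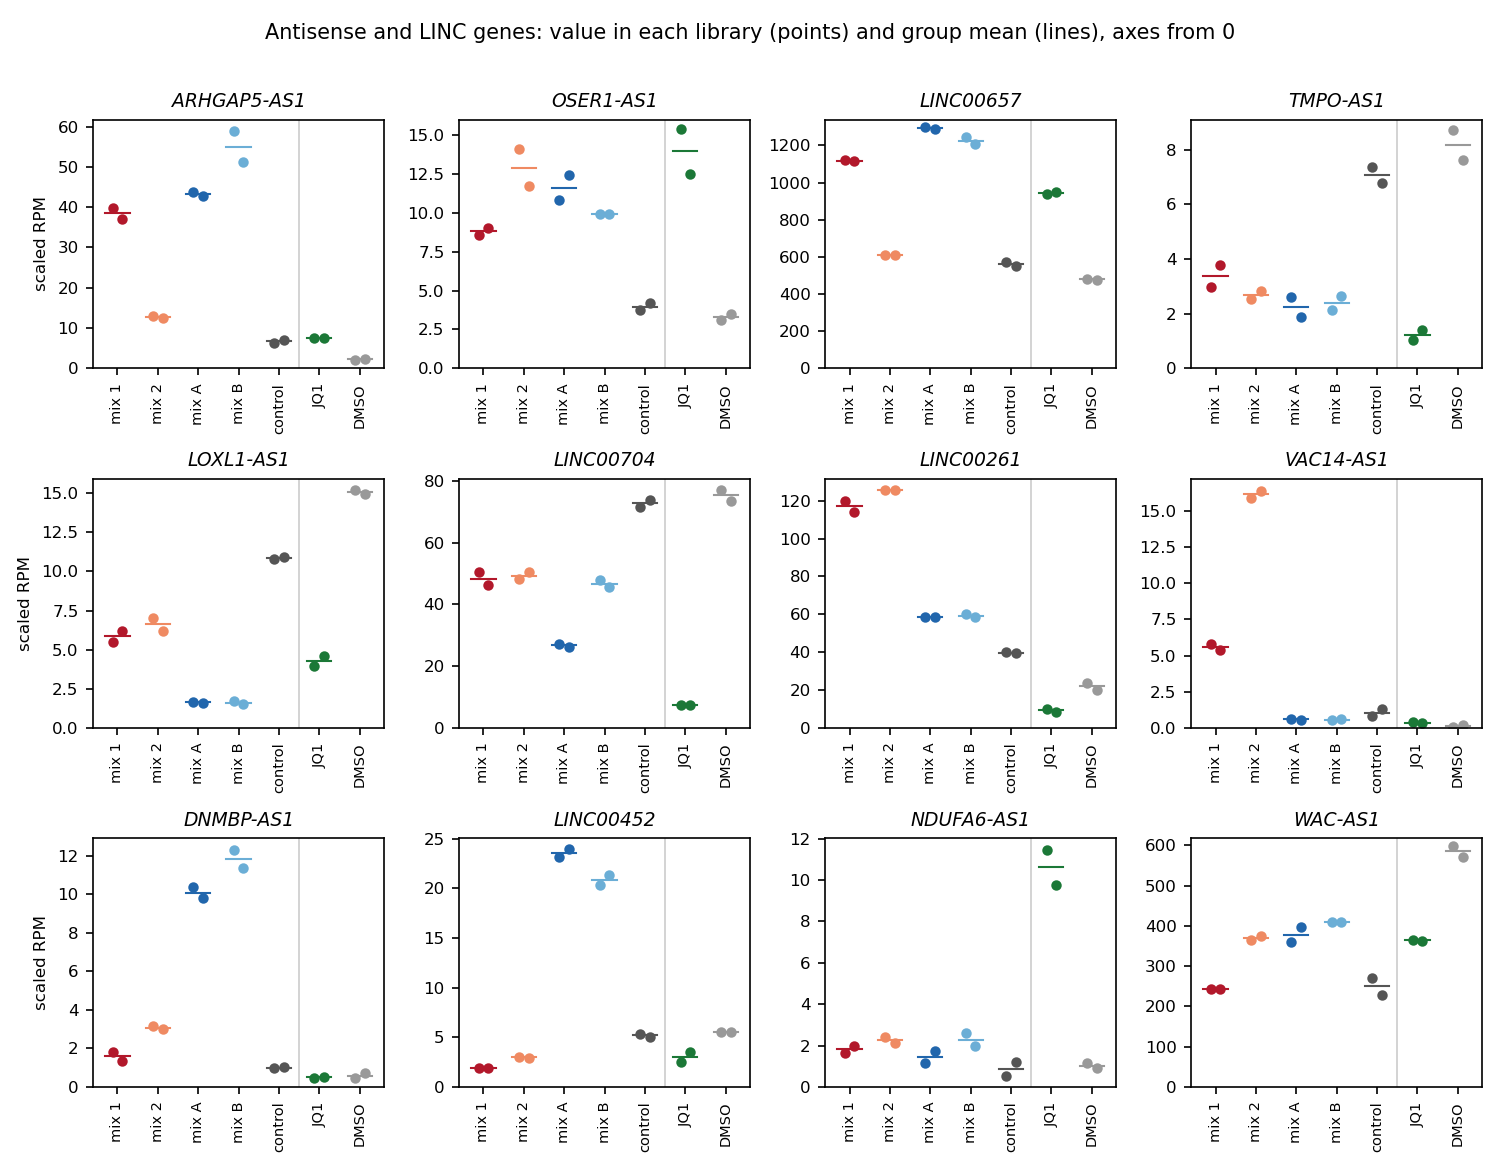
Level (scaled RPM, linear axis from 0) of 12 antisense and LINC genes in the 2 libraries of each group (points), with group means as lines; a grey vertical line separates the siRNA groups from JQ1 and DMSO. ARHGAP5-AS1 and OSER1-AS1 lie above their controls in every treated group, TMPO-AS1, LOXL1-AS1 and LINC00704 below, DNMBP-AS1 and LINC00452 are high with the BRD siRNA mixes, and NDUFA6-AS1 is high with JQ1.

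JQ1 and BRD siRNA were set against each other with a test of the difference between their effects. It was called for 102 antisense, 45 LINC and 13 SNHG genes of those tested, where 60.1% of all genes were called. DNMBP-AS1 had the largest difference, -2.65: BRD siRNA raised it by 2.58 and JQ1 left it at 0.481 and 0.527 scaled RPM, against 0.454 and 0.718 with DMSO. LINC00452 differed by -2.60, with 2.57 and 3.51 scaled RPM in the JQ1 libraries, against 5.51 and 5.55 in the DMSO libraries. LINC00704 differed by -2.17, and NDUFA6-AS1 by 1.91 in the other direction. The call of NDUFA6-AS1 after BRD siRNA (0.61) was lost without control siRNA replicate 1 (0.35), and its rise after YAP/TAZ siRNA moved to 0.46 without that library, against 0.72 with it. Called opposite ways by BRD siRNA and JQ1 were 8 antisense, 8 LINC and 3 SNHG genes, against 11.0% of all genes. The SNHG genes were SNHG3, SNHG5 and SNHG20. The 2 treatments differ in time as well, 72 h against 24 h, and the difference in time cannot be told apart from the difference in agent.

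Between the knockdowns, YAP/TAZ siRNA against BRD siRNA without the shared controls, 13 SNHG genes were lower and 1 higher, 58 LINC genes higher and 32 lower, and 84 antisense genes higher and 70 lower, where 41.1% of all genes were higher and 40.3% lower (81.3% in all). SNHG7 (-0.91), SNHG12 (-0.88) and SNHG20 (-0.78) were the lowest after YAP/TAZ siRNA, and SNHG11 (0.49) was the one higher. Harvest at 48 h and 72 h cannot be told apart from the target here.

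The siRNA mixes against one target also differed. Between mix 1 and mix 2, 164 of 373 genes were called, where 65.7% of all genes were called (30.9% higher and 34.8% lower with mix 1). The largest differences were those of ARHGAP5-AS1 (1.52 ± 0.090), LINC00857 (1.82 ± 0.098), PGM5-AS1 (-1.91 ± 0.12) and SNHG5 (-1.96 ± 0.059). PGM5-AS1 had 5.99 and 4.68 scaled RPM with mix 1 and 23.2 and 22.2 with mix 2, against 3.84 and 4.27 with control siRNA. LINC00857 had 21.2 and 21.3 with mix 1 and 4.97 and 5.64 with mix 2, against 9.22 and 10.2 with control siRNA. Both mixes were called higher for 66 of 235 antisense, 50 of 122 LINC and 0 of 16 SNHG genes, where 30.3% of all genes were. Both were called lower for 28, 10 and 11 of them, where 24.8% of all genes were. The mixes were called opposite ways for 7 antisense, 4 LINC and 1 SNHG gene, against 7.25% of all genes.

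Between mix A and mix B, 122 of 373 genes were called, where 50.0% of all genes were called. EPB41L4A-AS1, a host of SNORA13, had 9.91 and 8.82 scaled RPM with mix A and 29.9 and 29.9 with mix B, against 16.5 and 18.4 with control siRNA. The mixes lay on either side of the controls (-1.58 ± 0.085, limma adjusted p = 3.65e-12). VIM-AS1 (1.10 ± 0.11) and UBAC2-AS1 (-1.01 ± 0.14) differed as well. Both BRD mixes were called higher for 67 of 235 antisense, 33 of 122 LINC and 1 of 16 SNHG genes, where 27.8% of all genes were, and both lower for 33, 26 and 5 of them, where 27.1% of all genes were. These antisense and LINC shares of genes higher lie near that of all genes. They were called opposite ways for 9 antisense, 1 LINC and 1 SNHG gene, against 4.06% of all genes.

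DMSO and control siRNA libraries were compared as a measure of how far these genes differ between controls. Of 373 genes, 150 were called, where 54.2% of all genes were. The classes split by direction: 12 SNHG genes were higher with DMSO and 1 lower, 22 antisense genes higher and 68 lower, and 14 LINC genes higher and 33 lower, where 28.7% of all genes were higher and 25.4% lower. WAC-AS1, at WAC, the gene of an adaptor protein with a WW domain, had 599 and 571 scaled RPM in the DMSO libraries, against 270.3 and 228 in the control siRNA libraries (log2 fold change 1.23 ± 0.067 (SE), limma adjusted p = 6.01e-12). Its calls in the siRNA comparisons (0.27 after YAP/TAZ siRNA and 0.66 after BRD siRNA) turned with the control used and with the mix. With YAP/TAZ siRNA mix 1 alone the value was -0.034, and against DMSO the values turned to -0.96 and -0.57. Without control siRNA replicate 2 the value after YAP/TAZ siRNA was 0.15. ARHGAP5-AS1 (-1.26 ± 0.090), LINC00673 (-1.02 ± 0.094) and LINC01089 (-1.01 ± 0.15) were lower with DMSO. Transfection, solvent and harvest time cannot be told apart in this comparison.

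Of the 242 antisense genes, 222 have the gene they are named after in the table, and for 215 of these pairs both genes were tested. In GENCODE v29 (GRCh38), 166 pairs overlap on opposite strands, 44 lie head to head, 1 shares a strand and 4 had no match. The antisense gene was mostly the scarcer: without correction for length, it drew more reads than its partner in 25 of 222 pairs, and the median ratio of antisense to sense was 0.0621. After YAP/TAZ siRNA 68 pairs were called in one direction and 47 in opposite directions. After BRD siRNA these were 59 and 42 pairs, and with JQ1 51 and 46. Across the 215 pairs the fold changes of antisense and sense genes correlated weakly (Pearson's r 0.20, 0.16 and 0.15), as a description over genes that share libraries.

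Pairs whose RefSeq starts lie close together and face apart are shown by sequence, because they let both genes of a pair be read from 1 short stretch. Each line runs on the plus strand of GRCh38.p14 (first start that RefSeq lists for each gene) and is named from left to right. The sense gene starts at the left and is read towards the left, on the minus strand, and the antisense gene starts at the right and is read towards the right. Capitals mark 10 bases at each end: on the right the first transcribed bases of the antisense gene, and on the left the plus-strand complement of the first transcribed bases of the sense gene.
OSER1 to OSER1-AS1: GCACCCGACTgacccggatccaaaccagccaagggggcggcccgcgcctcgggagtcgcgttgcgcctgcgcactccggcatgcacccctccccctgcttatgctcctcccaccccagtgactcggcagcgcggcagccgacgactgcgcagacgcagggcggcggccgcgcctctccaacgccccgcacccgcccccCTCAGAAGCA
NDUFA6 to NDUFA6-AS1: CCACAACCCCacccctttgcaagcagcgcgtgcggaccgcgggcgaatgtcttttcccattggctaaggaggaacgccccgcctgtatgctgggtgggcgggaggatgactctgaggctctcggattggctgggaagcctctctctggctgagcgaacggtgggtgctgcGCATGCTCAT
GAS6 to GAS6-AS2: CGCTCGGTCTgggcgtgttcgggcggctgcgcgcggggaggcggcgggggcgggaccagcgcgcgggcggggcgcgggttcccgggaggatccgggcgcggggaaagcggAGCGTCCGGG
RNASEH1 to RNASEH1-AS1: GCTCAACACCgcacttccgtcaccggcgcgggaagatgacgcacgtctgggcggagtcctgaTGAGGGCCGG
These stretches lie at chr20:44210762-44210969, chr22:42090763-42090942, chr13:113864067-113864186 and chr2:3558324-3558395. The starts lie 189, 161, 101 and 53 bases apart, and the stretches hold 74.0%, 63.3%, 83.3% and 68.1% G and C. RefSeq now names all 4 antisense genes as divergent transcripts (-DT).

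Over so short a distance the genes moved together in some cases and apart in others. OSER1-AS1 and OSER1, an oxidative stress-responsive gene, were called higher in all 3 comparisons, OSER1 after YAP/TAZ siRNA through mix 2 (0.27) and not with mix 1 (0.018): the antisense gene by 1.23, 1.24 and 1.79 and the sense gene by 0.14, 0.78 and 0.49. OSER1-AS1 had 15.4 and 12.5 scaled RPM with JQ1, against 3.08 and 3.51 with DMSO, and OSER1 93.6 and 96.1 with JQ1, against 67.0 and 67.7 with DMSO. GAS6, the ligand of the receptors AXL and MERTK, rose with GAS6-AS2 after BRD siRNA. GAS6-AS2 had 48.5 and 54.5 scaled RPM in the mix A libraries and 32.6 and 31.4 in the mix B libraries, against 11.7 and 9.63 in the control siRNA libraries, and GAS6 had 843 and 804 scaled RPM in the mix A libraries and 778 and 766 in the mix B libraries, against 266 and 329 in the control siRNA libraries (1.43, adjusted p = 5.06e-14). RNASEH1-AS1 fell in all 3 comparisons (-1.34, -0.82 and -1.09), while RNASEH1, the gene of a ribonuclease for RNA in RNA-DNA hybrids, fell after YAP/TAZ siRNA (-0.68) and with JQ1 (-0.52) and was not called after BRD siRNA (0.12). NDUFA6-AS1 rose by 2.52 with JQ1, while NDUFA6 fell (-0.18).

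**Figure D5:**
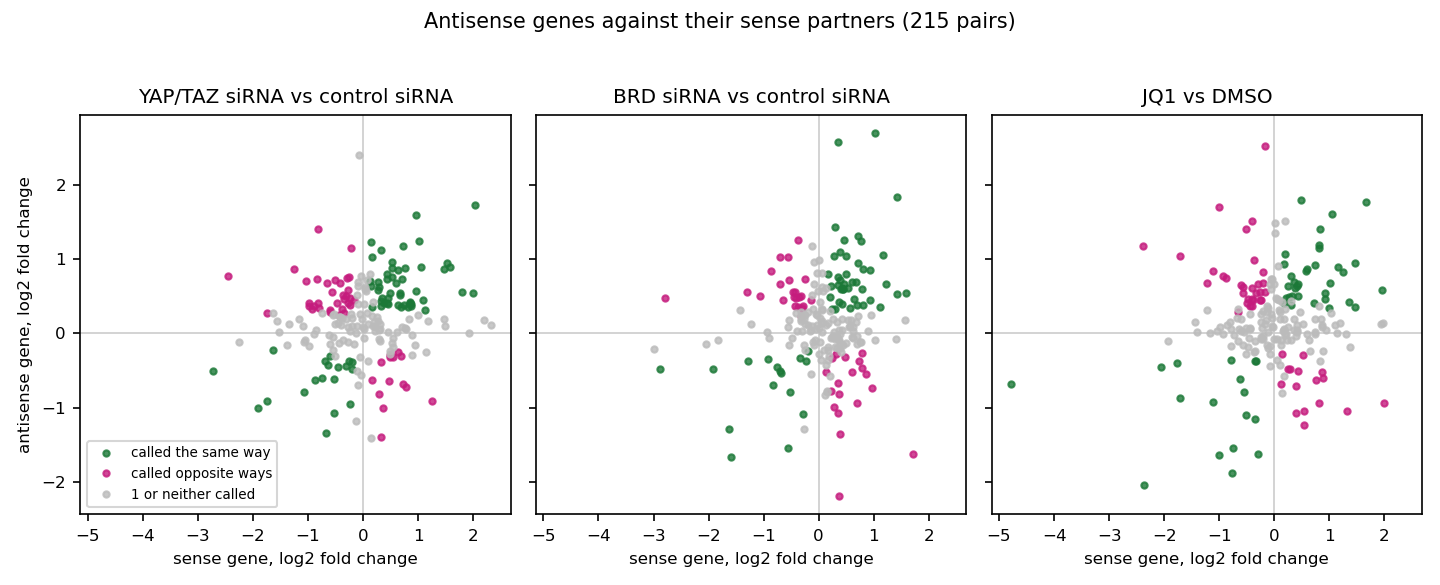
Log2 fold change of value + 1 of the antisense gene (vertical axis) against that of its sense partner (horizontal axis) for the 215 pairs with both genes tested, in the 3 main comparisons; each point is 1 pair, coloured by whether both genes were called and in which directions. Points lie in all 4 quadrants, with 68 pairs called in one direction and 47 in opposite directions after YAP/TAZ siRNA, where 78.9% of all genes were called. In that comparison the fold changes had the same sign in 123 of the 215 pairs.

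Among pairs with both genes at a mean of at least 5, the widest gap after YAP/TAZ siRNA was that of OIP5-AS1, known as Cyrano, whose transcript binds miR-7. OIP5, a centromere protein gene, fell (-2.25), while OIP5-AS1, at -0.12, was not called as a mean; it had 47.2 and 42.2 scaled RPM with mix 1 and 20.8 and 20.5 with mix 2, against 34.4 and 31.8 with control siRNA. PSMD5-AS1 rose in all 3 comparisons (0.73, 0.71 and 1.41), and PSMD5, a proteasome assembly chaperone, fell in all 3 (-0.84, -0.53 and -0.52). PSMD5-AS1 had 24.5 and 27.4 scaled RPM with JQ1, against 9.40 and 8.81 with DMSO, and PSMD5 had 56.0 and 57.7 with JQ1, against 83.0 and 80.7 with DMSO. RefSeq now lists PSMD5-AS1 as the pseudogene CUTALP. LOXL1-AS1 fell and LOXL1 rose after YAP/TAZ siRNA (LOXL1 0.77). After BRD siRNA, where LOXL1-AS1 fell with both mixes, LOXL1 rose with mix A (0.86) and was not called with mix B (-0.12). Both fell with JQ1 (LOXL1 -0.29). EIF3J, of a translation initiation factor, fell (-1.35) after YAP/TAZ siRNA, while its head-to-head partner EIF3J-AS1, at 0.13, was not called.

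NOP14-AS1 changed sides between comparisons. It fell with NOP14, a gene of small ribosomal subunit assembly, after YAP/TAZ siRNA (-0.79 and -1.08). With JQ1 it had 65.5 and 62.9 scaled RPM in the JQ1 libraries, against 19.5 and 18.4 in the DMSO libraries, while NOP14 had 106 and 117 in the JQ1 libraries, against 225 and 228 in the DMSO libraries (-1.01, adjusted p = 1.31e-12). TRIM52-AS1 did the reverse, lower with TRIM52 higher after BRD siRNA (-0.73 and 0.97) and with JQ1 (-1.05 and 1.31). SERTAD4 fell (-2.05) after BRD siRNA with SERTAD4-AS1 at -0.15, not called. FRMD6-AS1 rose by 1.51 with JQ1 while FRMD6 fell (-0.40). Pairs called one way were led by ARHGAP5-AS1, whose partner rose by 0.97, 1.02 and 0.83. ARHGAP5 had 813 and 753 scaled RPM with mix 1 and 238 and 252 with mix 2, against 244 and 205 with control siRNA, so the partner too was higher with mix 1, and with mix 2 it was not called (0.13). FUT8-AS1 rose with FUT8 (0.72) after BRD siRNA, and with JQ1 BAIAP2-AS1 (0.95) and TPT1-AS1 (1.19) rose with BAIAP2 (1.47) and TPT1 (0.82), and NR2F1-AS1 fell with NR2F1 (-0.78).

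The 20 antisense genes tested without a partner in the table were counted apart from the 215 with one. After YAP/TAZ siRNA 11 were called higher and 2 lower, against 96 higher and 40 lower of those with a partner, at medians of 0.49 and 0.21. After BRD siRNA 8 of the 20 were higher and 5 lower, against 82 and 44 of the 215, where 37.6% of all genes were called each way. With JQ1 9 of the 20 were higher and 3 lower, against 81 and 38 of the 215, where 37.6% of all genes were higher and 36.3% lower. The difference between these sets was not tested.

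Many of the names have since changed. All 384 symbols had an entry in RefSeq (GRCh38.p14), and 59 antisense and 37 LINC genes carry another name there. A divergent-transcript name replaced 39 antisense and 7 LINC symbols, and LINC00888 became SNHG33. RefSeq annotates 7 of the antisense and 11 of the LINC genes as protein-coding, and 4 antisense genes as pseudogenes. MMP24-AS1, now MMP24OS and one of the protein-coding ones, rose in all 3 comparisons (0.67 ± 0.058, 1.25 ± 0.058 and 1.35 ± 0.067). LINC00152, renamed CYTOR, fell after YAP/TAZ siRNA (-0.50 ± 0.061) and with JQ1 (-0.39 ± 0.071). Its smaller value after BRD siRNA (-0.22) lost its call without control siRNA replicate 2 (-0.11) and was not called with mix B alone (-0.12).

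Other well-known noncoding RNAs, from a written list of 35 of which 28 had a row, were called higher in 14 and lower in 8 cases after YAP/TAZ siRNA, 14 and 8 after BRD siRNA, and 16 and 8 with JQ1. In these comparisons 43.1%, 37.6% and 37.6% of all genes tested were called higher, and 35.9%, 37.6% and 36.3% lower. NEAT1, the RNA scaffold of paraspeckles, had 359 and 328 scaled RPM with mix 1, 218 and 182 with mix 2, 419 and 242 with mix A and 735 and 612 with mix B, against 48.9 and 56.0 with control siRNA, and 431 and 474 with JQ1, against 26.5 and 36.3 with DMSO. It was higher in all treated groups (2.30 ± 0.14, 3.12 ± 0.14 and 3.82 ± 0.17), as was MALAT1, a nuclear speckle RNA (1.28 ± 0.16, 1.23 ± 0.16 and 3.18 ± 0.18). GAS5, a snoRNA host without the SNHG name, fell after YAP/TAZ siRNA (-0.46 ± 0.050) and with BRD siRNA mix A (-0.71), but not with mix B (0.0045, not called), and was not called with JQ1 (-0.085). ZFAS1, another such host, was called higher with JQ1 and, as a mean over both mixes, not after the knockdowns (0.35; 0.065 after YAP/TAZ siRNA and -0.047 after BRD siRNA, with -0.38 for mix A and 0.28 for mix B). DANCR stood at -0.03, 0.46 and -0.54, the BRD siRNA and JQ1 values being called.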

How the data were processed

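The build hg19 and the tools HTSeq 0.6.0, TopHat2 2.0.5, CASAVA 1.8.4, R 3.0.0 and edgeR appear in the submitters' processing notes without an order; per the labels' protocols, libraries were made with a stranded TruSeq kit from total RNA depleted with Ribo-Zero Gold. For the annotation, strand setting and scaling method, nothing is given in the sources used here. As deposited, the signal is a table of read counts that the authors divided by a scaled library size and called CPM. Its columns sum to 903627 to 1098052, not to one total, so the values are called scaled RPM. Every value was a whole multiple (tolerance 0.01 reads) of what 1 read is worth in its library, which gave the read totals.

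Genes that reached 1 scaled RPM in 2 or more libraries (13674 of 13734) were tested as log2(value + 1) with limma 3.58.1 (R 4.3.3; trend, 1 model over 14 libraries and 7 groups, no covariates, two-sided, Benjamini-Hochberg per comparison, threshold 0.05). The limma script was tested on simulated data in which few genes changed and all genes shared a fixed spread. The real libraries differ in both, so that run does not give the error rate here. Replicate numbers did not pair libraries (correlation of same-numbered deviations from group means -0.37 to 0.25), and replicates differed by more than sampling noise (chi-square per gene 3.45 to 10.7). The 10.7 is that of BRD siRNA mix A, whose libraries differed most, and the next highest was 5.05 with control siRNA. The model used a spread pooled over all groups. Alternatives were other pseudocounts (0.25, 4), filters, scalings, leaving out each library, a replicate block, single mixes, the other control group, and edgeR 4.0.16 and DESeq2 1.42.0 on the recovered reads. After YAP/TAZ siRNA, edgeR on those reads called 5746 of all genes higher and 4870 lower.

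The members and lists were chosen with earlier results of these data known. Genes named are every SNHG gene; per class and main comparison the 5 largest rises and falls among called genes without overlap between groups and with a mean of at least 5 in the higher group; the 5 with most reads per class; the 6 with the largest smallest change each way in all 3 comparisons; the 4 pairs per comparison with the widest gap and the 4 called one way with the largest smaller change (both means at least 5); and the 4 largest differences between mixes, between controls and between JQ1 and BRD siRNA effects. The snoRNAs, NOP56 and RBM8A were picked after their values were seen, and some genes the rules name are not reported here. Exon lengths, geometry and snoRNA positions are from GENCODE v29 (GRCh38), where 372 members (96.9%) matched; names and start windows are from RefSeq (GRCh38.p14).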

Additional observations from a re-analysis of the deposited data

Results flagged for a closer look

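The effect of JQ1 differed from that of BRD siRNA for 102 antisense, 45 LINC and 13 SNHG genes by the test of the difference itself (limma, adjusted over all genes). These were 42.9% of the members tested, against 60.1% of all genes. The 4 largest differences that met the naming rule are given here. DNMBP-AS1 differed by -2.65 on the log2 scale (adjusted p = 3.72e-11), with -0.072 for JQ1 and 2.58 for BRD siRNA. LINC00452 differed by -2.60 (adjusted p = 1.08e-11), with -0.70 for JQ1 and 1.90 for BRD siRNA, and so changed direction. LINC00704 differed by -2.17 (adjusted p = 8.27e-14), with -3.19 for JQ1 and -1.02 for BRD siRNA, and NDUFA6-AS1 by 1.91 (adjusted p = 2.55e-07), with 2.52 for JQ1 and 0.61 for BRD siRNA.

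The mixes against one target were called in opposite directions for 7 antisense, 4 LINC and 1 SNHG gene (YAP/TAZ siRNA), against 7.25% of all genes. For BRD siRNA these were 9, 1 and 1, against 4.06% of all genes. Of the genes called in opposite directions for either target, 9 are among the genes named by rule. Between YAP/TAZ siRNA mix 1 and mix 2 the named ones were SNHG5 (-1.96, limma adjusted p = 1.03e-16), LINC00857 (1.82, adjusted p = 1.06e-12), OIP5-AS1 (1.08, adjusted p = 1.44e-10) and LINC00674 (1.05, adjusted p = 2.61e-11). Between BRD siRNA mix A and mix B the named ones were EPB41L4A-AS1 (-1.58, adjusted p = 3.65e-12), BAIAP2-AS1 (0.95, adjusted p = 8.49e-08), PGM5-AS1 (-0.87, adjusted p = 5.15e-06), LRRC75A-AS1 (-0.70, adjusted p = 1.14e-08) and SNHG6 (-0.61, adjusted p = 1.60e-07) by limma. LRRC75A-AS1, EPB41L4A-AS1 and SNHG6 all carry snoRNAs and all were lower with mix A than with mix B. PGM5-AS1 was lower with mix A as well, and BAIAP2-AS1 was higher.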

How the results depend on the processing

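Of 469 recomputed counts, 421 stayed within 1.5 times the reported count and 48 did not. Of 4414 recomputed values of named genes, 4327 kept their direction and call, 71 kept the direction but lost the call and 16 reversed. The cause was not tested except where fewer genes or libraries entered. After YAP/TAZ siRNA, 107 antisense genes were called higher and 42 lower: with a filter at 5 these were 52 and 25, with quantile normalization 62 and 79, among those with no partner listed they were 11 and 2, and at a mean of at least 5 they were 29 and 15. The 67 LINC genes higher became 32 (filter at 5) and 44 (quantile), and the 13 lower became 33 (quantile). The 2 SNHG genes higher became 1 with a pseudocount of 4, median-ratio scaling, only the libraries compared, edgeR, DESeq2 or DMSO as the control, and 0 with quantile normalization or mix 1 alone. The 68 pairs called one way became 35 (filter at 5) and 18 (both means at least 5).

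After BRD siRNA the 90 antisense genes higher became 47 (filter at 5), 8 (no partner) and 33 (mean of at least 5), and the 49 lower 26, 5 and 13. The 33 LINC genes lower became 16 (filter at 5), the 10 SNHG genes lower 5 (mix B alone) and the 59 pairs 27 (filter at 5) and 13 (both means at least 5). With JQ1 the 90 antisense genes higher became 48 (filter at 5), 9 (no partner) and 30 (mean of at least 5), and the 41 lower became 3 (no partner) and 17 (mean of at least 5). The 38 LINC genes higher became 25 and the 30 lower 15 (filter at 5), and the 51 pairs became 16 (both means at least 5). The 164 genes called between mix 1 and mix 2 became 102 (filter at 5), and the 122 between mix A and mix B became 73 (filter at 5) and 77 (DESeq2). Leaving out 1 library gave 1 to 2 SNHG genes higher after YAP/TAZ siRNA, 12 to 13 lower, and 1 to 4 higher after BRD siRNA. A fit with the replicate number as a block gave 107 antisense genes higher and 13 SNHG genes lower after YAP/TAZ siRNA, and 5894 of all genes higher, against 5889 without the block; it changed no call of a named gene.

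Reversed with mix B alone were SNHG12 (0.015), SNHG5 (0.085), SNHG7 (0.10), LINC00116 (0.035), LINC00857 (-0.029) and VIM-AS1 (-0.22), all after BRD siRNA. With mix 2 alone SNHG5 (0.60) and VIM-AS1 (-0.044) reversed after YAP/TAZ siRNA, and with mix 1 alone WAC-AS1 (-0.034). Against DMSO in place of control siRNA, SNHG20 (0.20), SNHG9 (-0.47) and WAC-AS1 (-0.96) reversed after YAP/TAZ siRNA, and VAC14-AS1 (0.50), WAC-AS1 (-0.57) and LINC00673 (0.38) after BRD siRNA. With quantile normalization SNHG9 (-0.063) reversed after YAP/TAZ siRNA. With 2 libraries per group and 1 pair of controls for 4 siRNA mixes, calls of genes near 1 scaled RPM rest on few reads.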
